A study of Mus musculus with 12 samples.

Results

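The effect of paraquat (PQ) on every gene of the mouse lung was compared between 1w and 4w after dosing. The quantity described is the difference of effects, the log2 effect at 4w minus the log2 effect at 1w, where an effect is PQ over saline of the same time. A negative difference means that the effect was lower at 4w than at 1w, and a positive one that it was higher. All 12 of the 12 libraries entered, chosen by their treatment label, and 15921 of the 20774 genes listed were tested. The 4 groups of 3 libraries were saline at 1w (control 1w), PQ at 1w, saline at 4w (control 4w) and PQ at 4w. The tissue was lung of wild type C57BL/6J mice throughout, and the labels give each an age of 8 week. PQ mice had received paraquat in saline once into the trachea, and controls saline alone. The labels do not say whether that age was at dosing or at sampling, the 1w and 4w of the labels were read as weeks, and the dose is not given in the sources used here. Replicates carry a number and no statement that each was its own animal. The p-values therefore speak of the spread among the 3 libraries of a group, part of which may be technical.

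Paraquat is a herbicide that cycles between its oxidised and reduced forms inside cells, taking electrons from enzymes such as NADPH-cytochrome P450 reductase and passing them to oxygen, which yields superoxide. Lung cells accumulate it through polyamine uptake. Lung injury by paraquat is known for an early phase of epithelial damage and inflammation and a later phase of fibrosis, in which fibroblasts deposit collagen. These statements are background and not results of these libraries.

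Levels are given as CPM, counts scaled to library size and composition, which serve to compare libraries within a gene and not genes with each other. Effects, differences and their standard errors (±) are on the log2 scale and came from 1 edgeR quasi-likelihood fit of the 12 libraries. A gene was called where its p, adjusted by Benjamini and Hochberg over all 15921 genes, was under 0.05, and "rose" or "fell" is used only of called effects. Every group has n = 3. Gene coordinates are those of GRCm38 (mm10).

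Library totals were 17220978 to 18559809 expected counts. Of the variance of log2 CPM, 51.1% lay on a first principal component that set PQ 1w apart from the other groups and 19.9% on the second. On that second component PQ 4w replicate 3 was at 4.92, while PQ 4w replicates 1 and 2 were at -42.0 and -40.3. Chi-square per degree of freedom over genes was 30.8 and 32.9 between that library and the other PQ 4w libraries, against 7.12 to 15.4 for every other pair within a group. Results that rest on PQ 4w replicate 3 are therefore given with and without it. Markers of lung were present in every library. In bulk lung, fewer cells of a type and less RNA per cell cannot be told apart.

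The paraquat effect differed between the times for 5092 genes (32.0% of those tested), 2842 of them lower at 4w (17.9%) and 2250 higher (14.1%). With PQ 4w replicate 3 left out there were 5250. The split by direction depended on the scaling. It was 2566 lower and 2487 higher with RLE scaling, and 2613 and 2454 with upper quartile scaling. DESeq2 gave 2583 and 2555, limma on log2 FPKM 2395 and 2368, and limma voom 2832 and 2116. A difference of at least 2-fold was called for 1557 genes (9.78%), 798 lower (5.01%) and 759 higher (4.77%). Over all genes tested the median difference was -0.012, and the median standard error of a difference was 0.16.

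Most called differences belonged to genes whose effect at 1w passed and whose effect at 4w did not. At 1w, 7772 genes (48.8%) had a called effect, 4129 higher and 3643 lower. At 4w there were 1932 (12.1%), 915 higher and 1017 lower. Which direction held more genes at 4w depended on the method. RLE scaling gave 981 higher and 802 lower, upper quartile scaling 1029 and 844, and DESeq2 1154 and 1059. For limma it was 1054 and 598 on log2 FPKM and 770 and 959 with voom. Among the 5092 genes, 2176 (42.7%) rose at 1w and did not pass at 4w, and 1702 (33.4%) fell at 1w and did not pass at 4w. These counts were 1793 to 2236 and 1364 to 1728 when any 1 library was left out. For 1678 of the 2176 and 1263 of the 1702, the 95% interval of the effect at 4w lay within 1.5-fold of the control, so these intervals bound what remained. For the others the data do not bound it so closely.

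Smaller classes followed from calls at 4w. In 192 genes the effect was higher at both times and smaller at 4w, and in 107 lower at both times and smaller at 4w. Direction turned in 256 genes: 123 rose at 1w and fell at 4w, and 133 fell at 1w and rose at 4w. A further 145 rose at 4w only by these calls and 172 fell at 4w only. Another 334 passed for the difference and at neither time. These classes depended on single libraries more than the large ones did. Leaving out control 4w replicate 1 gave 641 called genes at 4w in place of 1932, control 4w replicate 2 gave 1096, control 4w replicate 3 gave 1183 and PQ 4w replicate 1 gave 994. Without control 4w replicate 1, 31 genes rose and then fell, 46 fell and then rose, 60 rose at 4w only and 42 fell at 4w only. Without PQ 4w replicate 2, 225 fell and then rose.

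**Figure D1:**
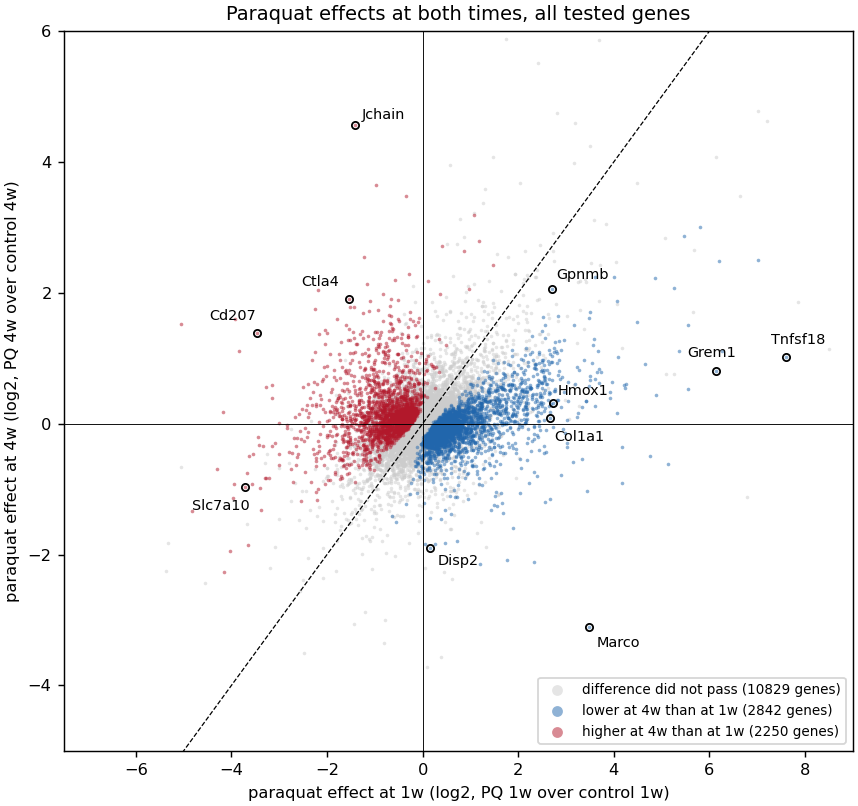
Each point is 1 of the 15921 tested genes, with the log2 paraquat effect at 1w on the horizontal axis and at 4w on the vertical axis, and the dashed line marks equal effects. Blue points (2842 genes, effect lower at 4w) lie below the line and red points (2250 genes, effect higher at 4w) above it, most of them near an effect of 0 at 4w.

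**Figure D2:**
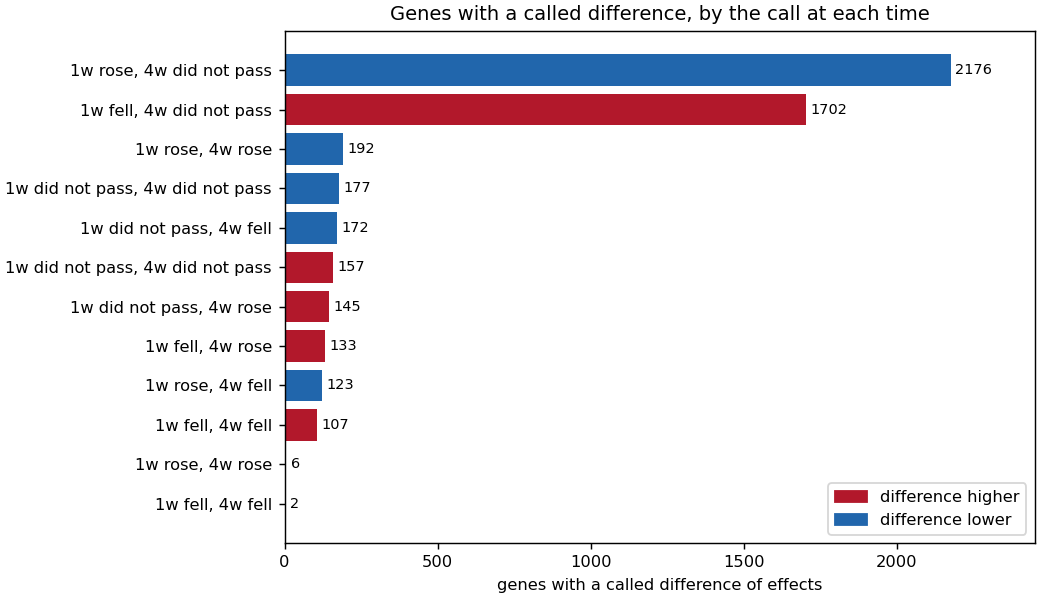
Bars count the 5092 genes with a called difference by their call at 1w and at 4w, blue where the effect was lower at 4w and red where it was higher. The longest bars are the 2176 genes that rose at 1w and did not pass at 4w and the 1702 that fell at 1w and did not pass at 4w.

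Saline lungs also differed between the times, and the control level of each time enters the difference. Control 4w differed from control 1w for 1609 genes (10.1%, in the same edgeR fit), 940 higher (5.90%) and 669 lower (4.20%). That number ran from 123 without control 4w replicate 2 to 2570 without PQ 4w replicate 3. It was also below 1609 by more than 1.5 times without control 1w replicate 1 (337), control 1w replicate 3 (139), control 4w replicate 1 (678), control 4w replicate 3 (159) or PQ 1w replicate 3 (931). The age of the mice and the time after saline cannot be told apart in this contrast.

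Genes of the collagen matrix had high paraquat effects at 1w and, in the median, effects near 0 at 4w. Of 17 fibrillar and network collagen genes, which encode interstitial, network and bridging chains, the effect was lower at 4w in 16 and higher in 0. The list's median effect was 1.90 at 1w and 0.11 at 4w, and its median difference was -1.71, against -0.012 over all genes. The count was the same, 16 of 17, without PQ 4w replicate 3. All 8 interstitial chains were lower at 4w, with a median difference of -2.31, and 8 of 9 network and bridging chains, with -1.38.

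Col1a1, which encodes a chain of type I collagen (chromosome 11, 94936224 to 94953042), was at 614, 663 and 630.4 CPM in control 1w and at 3676, 4026 and 4391 in PQ 1w. It was at 543, 560.5 and 548 CPM in control 4w and at 547, 650.3 and 549 in PQ 4w. At 1w the PQ libraries thus lay far above the controls, and at 4w the ranges of both groups overlapped. The difference was -2.58 ± 0.12 (adjusted p = 4.07e-07), a 6.00-fold smaller ratio of PQ to saline at 4w. Col3a1, type III collagen, was at 896, 1055 and 924 CPM in control 1w and 3466, 3474 and 3818 in PQ 1w. At 4w it was at 527, 604 and 528 CPM in controls and 636, 788 and 767 in PQ, with no overlap between the groups at either time. Its effect was 1.90 at 1w and 0.40 at 4w (adjusted p = 0.0227), and the difference was -1.503 ± 0.14 (adjusted p = 3.73e-05). The call at 4w was lost without control 4w replicate 1 or 3 and without PQ 4w replicate 2 or 3 (adjusted p up to 0.0981).

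Glycoproteins, crosslinkers and proteases of the matrix gave the same kind of values. For 25 matrix glycoproteins and proteoglycans the effect was lower at 4w in 18 and higher in 3, with a median difference of -1.20. Fn1, fibronectin, was at 592, 465 and 807 CPM in control 1w, 4064, 5090 and 4251 in PQ 1w, 370.3, 319 and 435 in control 4w and 584, 662 and 718 in PQ 4w. Its PQ libraries lay above the controls at both times, and the effect was 2.85 at 1w and 0.81 at 4w, a difference of -2.04 ± 0.25 (adjusted p = 0.000192). Tnc, the matricellular protein tenascin-C, had PQ values of 363, 534 and 566 CPM at 1w against 38.6, 38.5 and 35.8 in controls. At 4w it had 24.9, 40.2 and 31.5 CPM in PQ against 19.7, 16.7 and 17.6 in controls, and the difference was -2.86 ± 0.26 (adjusted p = 3e-05). Fbn1, the microfibril protein fibrillin-1, had an effect of 1.81 at 1w and 0.08 at 4w, a difference of -1.73 ± 0.15 (adjusted p = 2.63e-05). All 7 elastic fibre genes had a called difference, 6 lower and 1 higher.

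Collagen processing and crosslinking had 17 of 20 genes lower at 4w and 1 higher, with a median difference of -0.71. Fkbp10, an endoplasmic reticulum chaperone for collagen, had effects of 1.94 at 1w and 0.13 at 4w, and its difference was -1.82 ± 0.11 (adjusted p = 1.68e-06). Lox, the lysyl oxidase that crosslinks collagen and elastin, had effects of 1.71 and -0.01, a difference of -1.72 ± 0.21 (adjusted p = 0.000176). Of 28 matrix proteases and inhibitors, 15 were lower at 4w and 3 higher, with a median difference of -0.77. Mmp14, a membrane-bound matrix metalloproteinase, rose at both times, with effects of 2.24 and 0.54 and a difference of -1.70 ± 0.11 (adjusted p = 4.86e-06). Timp1, an inhibitor of metalloproteinases, was at 11.2, 10.4 and 9.41 CPM in control 1w and 100.2, 118 and 112 in PQ 1w. Its 4w values of 7.81, 12.8 and 7.93 CPM in controls and 10.7, 15.2 and 10.4 in PQ overlapped, and the difference was -3.07 ± 0.26 (adjusted p = 2.2e-05). The effect at 4w passed only without control 4w replicate 2 (adjusted p = 0.0407). Of 19 basement membrane genes, 8 were lower and 1 higher, a called share of 47.4% against 32.0% of all genes. Nid2, the linker nidogen-2, had a difference of -0.93 ± 0.14 (adjusted p = 0.000542).

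Signals and cells that produce matrix were mixed. TGF-beta family genes had 15 of 38 lower at 4w and 5 higher, a called share of 52.6% against 32.0% of all genes. By role, 6 of 9 ligands were lower and 1 higher, while of 12 SMADs and inhibitors 3 were lower and 1 higher. Tgfb1, the main profibrotic ligand, had a small effect of 0.35 at 1w and -0.13 at 4w, and its difference was -0.48 ± 0.13 (adjusted p = 0.0134). Grem1 (chromosome 2, 113748675 to 113758648), whose secreted product binds and blocks BMP ligands, was at 0.226, 0.114 and 0.0557 CPM in control 1w and 2.81, 16.6 and 10.1 in PQ 1w, so that PQ 1w replicate 1 was the lowest of its group. At 4w Grem1 was at 0.0579, 0.452 and 0.171 CPM in controls and 0.330, 0.731 and 0.165 in PQ, and the difference was -5.33 ± 1.54 (adjusted p = 0.0201). That call was lost without control 4w replicate 2 (-4.37, adjusted p = 0.162), and the difference was -5.94 without control 1w replicate 1, -4.73 without PQ 1w replicate 2 and -6.03 without PQ 4w replicate 2.

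Myofibroblast and smooth muscle genes were lower at 4w in 8 of 16 and higher in 0. Acta2, the smooth muscle actin that marks myofibroblasts, rose at 1w from 169, 169 and 134 CPM to 436, 416 and 425. At 4w the groups overlapped, with 193, 220.3 and 242 CPM in controls and 153, 223 and 125 in PQ, and the difference was -1.83 ± 0.24 (adjusted p = 0.000281). The effect at 4w passed only without PQ 4w replicate 2 (adjusted p = 0.00995). Alveolar fibroblast genes moved the other way, with 8 of 14 higher at 4w and 1 lower. Slc7a10, an amino acid transporter of that list, was at 35.5, 42.9 and 46.3 CPM in control 1w and 3.08, 3.16 and 3.22 in PQ 1w, and at 43.6, 42.3 and 45.4 and 25.1, 21.2 and 20.8 in the 4w groups. It fell at both times, 13.2-fold at 1w and 1.96-fold at 4w, and the difference was 2.75 ± 0.16 (adjusted p = 1.22e-06). Sfrp1, a secreted Wnt inhibitor, rose at both times with effects of 2.87 and 0.97, a difference of -1.89 ± 0.18 (adjusted p = 4.04e-05). In the list of developmental and growth signalling that holds it, 13 of 46 were lower and 5 higher, a called share of 39.1% against 32.0% of all genes.

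**Figure D3:**
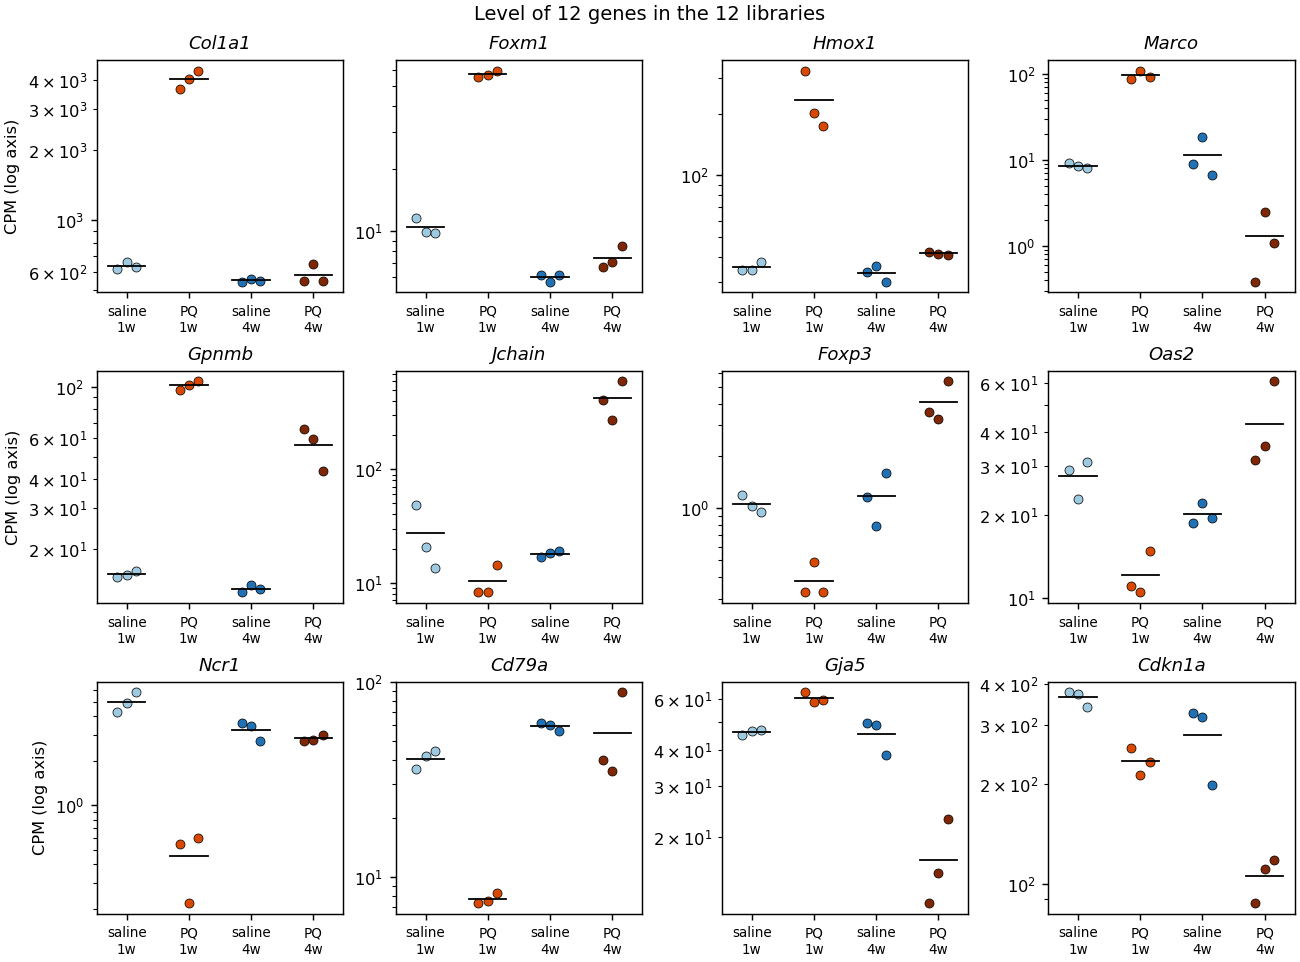
Points are the CPM of 12 genes in each of the 12 libraries on log axes, in the order saline 1w, PQ 1w, saline 4w and PQ 4w, with replicates 1 to 3 from left to right, and bars are group means. Col1a1, Foxm1 and Hmox1 were high in PQ 1w alone, Jchain and Foxp3 were highest in PQ 4w, and Gja5 was lowest in PQ 4w.

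Every tested gene of the replication and mitosis lists had a smaller effect at 4w than at 1w. All 30 replication genes were lower at 4w, with a median effect of 1.52 at 1w and 0.31 at 4w, and a median difference of -1.18. All 31 mitosis genes were lower as well, with a median effect of 2.31 at 1w and 0.51 at 4w, and a median difference of -1.73. Leaving out PQ 4w replicate 3 gave again 30 of 30 and 31 of 31. At 4w, 13 mitosis genes still rose, against 5.75% of all genes. The 13 became 5 without control 4w replicate 1, 7 without control 4w replicate 3 and 5 without PQ 4w replicate 1.

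The saline groups moved too: 25 of 31 mitosis genes were lower in control 4w than in control 1w, with a median of -0.98, and 11 of 30 replication genes. Of all genes, 4.20% were. The 25 became 16 without control 1w replicate 1, 13 without control 4w replicate 2 and 12 without control 4w replicate 3. The 11 replication genes became 0 to 7 when any 1 of the saline or PQ 1w libraries was left out. Foxm1, a transcription factor of the G2 and M phases (chromosome 6, 128362994 to 128375886), was at 11.6, 9.90 and 9.86 CPM in control 1w and 55.2, 56.6 and 59.5 in PQ 1w. In the 4w groups it was at 6.13, 5.71 and 6.16 CPM in controls and 6.71, 7.09 and 8.51 in PQ, above the controls in all 3 libraries but not called (adjusted p = 0.0884). Its difference was -2.14 ± 0.15 (adjusted p = 6.32e-06). Mki67, the proliferation marker Ki-67, rose at both times, 4.63-fold at 1w and 1.93-fold at 4w, with a difference of -1.27 ± 0.29 (adjusted p = 0.00598), but the rise at 4w was not called without control 4w replicate 3 (adjusted p = 0.0569). Rrm1, a subunit of ribonucleotide reductase, and Mcm2, a subunit of the replicative helicase, had differences of -1.28 ± 0.10 (adjusted p = 1.1e-05) and -1.11 ± 0.14 (adjusted p = 0.000217).

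Promoters of the 2 lists were searched for short letters that the choice of genes did not use. Windows of 300 bases (250 before and 50 after a start site) came from RefSeq on GRCm38.p6. The CHR letters TTTGAA, searched on both strands, stood in 18 of 26 promoters of the mitosis list (69.2%), against 12.7% of the 15800 promoters of tested genes, and in 3 of 31 of the replication list (9.68%). The letters CCAAT stood in 19 of 26 (73.1%) and 17 of 31 (54.8%), against 37.1%. The E2F letters TTTGGCGC or TTTCCCGC stood in 8 of 31 replication promoters (25.8%) and 0 of 26 mitosis promoters, against 2.56%. Of the list genes, 25 of 31 and 26 of 30 had an entry. Matches of different motifs may overlap, and a match is a description of letters only, not of a bound factor. Shown are the 3 mitosis genes with the smallest p for the difference among those with a CHR match, picked after their values were known. They are Prc1, a spindle midzone crosslinker (chr7:80294201-80294500, plus strand), Plk1, a mitotic kinase (chr7:122159185-122159484, plus strand), and Ccnb2, cyclin B2 (chr9:70421505-70421804, minus strand). Capitals mark TTTGAA and CCAAT.
Prc1: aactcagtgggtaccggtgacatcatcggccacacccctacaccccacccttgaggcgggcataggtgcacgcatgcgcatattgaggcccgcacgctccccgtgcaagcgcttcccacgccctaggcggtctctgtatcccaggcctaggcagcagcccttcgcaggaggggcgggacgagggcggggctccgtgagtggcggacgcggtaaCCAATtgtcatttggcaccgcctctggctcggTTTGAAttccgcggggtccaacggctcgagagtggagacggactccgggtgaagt
Plk1: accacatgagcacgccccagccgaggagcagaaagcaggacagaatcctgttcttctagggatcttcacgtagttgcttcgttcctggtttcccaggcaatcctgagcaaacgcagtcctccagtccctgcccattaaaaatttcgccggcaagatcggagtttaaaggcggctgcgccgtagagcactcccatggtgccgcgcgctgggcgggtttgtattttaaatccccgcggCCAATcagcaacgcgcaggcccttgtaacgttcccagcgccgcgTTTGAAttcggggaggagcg
Ccnb2: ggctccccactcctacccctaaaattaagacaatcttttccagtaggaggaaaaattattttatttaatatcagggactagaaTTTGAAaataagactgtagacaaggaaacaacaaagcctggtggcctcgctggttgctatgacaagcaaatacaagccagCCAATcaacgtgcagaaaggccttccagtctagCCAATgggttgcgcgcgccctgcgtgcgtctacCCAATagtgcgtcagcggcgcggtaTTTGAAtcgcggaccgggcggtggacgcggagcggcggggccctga
Each of the 3 holds a CCAAT because the pick required it, and in each a CCAAT lay upstream of the last TTTGAA. The differences were -1.92 for Prc1 (adjusted p = 1.9e-05), -1.86 for Plk1 (adjusted p = 3.73e-05) and -2.18 for Ccnb2 (adjusted p = 6.61e-05).

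Most tested genes of the tissue and lipid-associated macrophage list rose at both times. Of its 27 genes, 22 rose at 1w and 17 at 4w (background 25.9% and 5.75%), and 0 fell at either time. The count at 4w was 17 without PQ 4w replicate 3 as well, and 15 without control 4w replicate 1. The median effect was 1.52 at 1w and 0.89 at 4w, and 12 genes were lower at 4w and 1 higher. Gpnmb, a glycoprotein of lipid-laden macrophages, was at 15.2, 15.5 and 16.1 CPM in control 1w and 97.1, 102 and 106 in PQ 1w. In the 4w groups it was at 13.02, 14.1 and 13.4 CPM in controls and 66.0, 59.5 and 43.5 in PQ, with PQ 4w replicate 3 the lowest of its group and still above every control. It rose 6.50-fold at 1w and 4.17-fold at 4w, and the difference was -0.64 ± 0.17 (adjusted p = 0.015). Lgmn, the lysosomal protease legumain, had effects of 1.59 and 0.32 and a difference of -1.27 ± 0.10 (adjusted p = 1.9e-05).

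Only 3 genes met a rule for an effect that was the same at both times: called in 1 direction at both, at least log2 1 at both, and with the 95% interval of the difference inside 1.5-fold either way. All 3 are known to be expressed by myeloid cells. Ctss, the lysosomal protease cathepsin S, was at 164, 154 and 176 CPM in control 1w, 385, 443 and 431 in PQ 1w, 128, 128 and 106 in control 4w and 281, 242 and 363 in PQ 4w. Its effects were 1.35 and 1.29, and the difference of -0.06 ± 0.18 (adjusted p = 0.832) did not pass. Adgre1, the macrophage marker F4/80, had effects of 1.32 and 1.22, and Lair1, an inhibitory collagen receptor of leukocytes, 1.04 and 1.11. In all, 176 genes had called effects of log2 1 or more in the same direction at both times, and for the rest of them the interval was wider or reached past that bound.

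Alveolar macrophage genes had 6 of 18 lower at 4w (8 without PQ 4w replicate 3) and 0 higher, against 17.9% and 14.1% of all genes. The called share in both directions together was 33.3%, against 32.0% of all genes. At 4w 4 of the 18 rose and 2 fell, which became 2 and 1 without control 4w replicate 1. Marco, a scavenger receptor of alveolar macrophages (chromosome 1, 120474538 to 120505024), was the lowest named difference of all. It was at 9.11, 8.53 and 8.13 CPM in control 1w and 88.4, 109 and 90.9 in PQ 1w, and at 9.08, 18.5 and 6.62 in control 4w and 0.385, 2.48 and 1.10 in PQ 4w. The PQ libraries lay above the controls at 1w and below them at 4w. It rose 11.2-fold at 1w (adjusted p = 6.8e-06) and fell 8.65-fold at 4w (adjusted p = 0.0021). The difference was -6.60 ± 0.56 (adjusted p = 2.2e-05), and -7.40 without PQ 4w replicate 2. Vsig4, a complement receptor of resident macrophages, rose at 1w from 0.226, 0 and 0.0557 to 6.44, 3.38 and 4.42 CPM. At 4w it was at 0.0579, 0.283 and 0.114 CPM in controls and 0.110, 0.506 and 0.0549 in PQ, and the difference was -5.03 ± 1.33 (adjusted p = 0.0134). That call was lost without control 4w replicate 2 (-4.26, adjusted p = 0.108), and the difference was -6.56 without control 1w replicate 1 and -6.38 without PQ 4w replicate 2.

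Among 32 inflammatory chemokines and cytokines, 5 were lower at 4w and 2 higher, a called share of 21.9% that was below the 32.0% of all genes. Ccl2, a chemokine that attracts monocytes, was at 1.13, 0.398 and 1.06 CPM in control 1w and 19.0, 11.9 and 13.7 in PQ 1w. It was at 0.579, 0.735 and 1.43 CPM in control 4w and 0.990, 1.57 and 3.02 in PQ 4w, where the groups overlapped, and the difference was -3.07 ± 0.65 (adjusted p = 0.00414). Ccl5, a chemokine of T and NK cells, fell at 1w from 68.6, 81.5 and 56.2 to 20.4, 21.3 and 21.4 CPM and did not pass at 4w, and its difference was 1.96 ± 0.31 (adjusted p = 0.000791). Tnfsf18, the ligand of GITR, a costimulatory receptor of T cells, had 473 counts over the PQ 1w libraries and 2 over control 1w, a ratio of 231 (95% counting interval 63.6 to 1914). At 4w the PQ libraries held 15 counts of it together and the controls 7. The fitted difference of -6.58 ± 1.24 (adjusted p = 0.00201) depends on the prior count, and was -7.86 without PQ 4w replicate 2. Monocyte and neutrophil genes had 2 of 21 higher and 2 lower, and 5 lower without control 4w replicate 3. The called share was 19%, against 32.0% of all genes, and 0 of the 12 neutrophil genes had a called difference. At 4w 8 of the 21 fell and 3 rose (background 6.39% and 5.75%). The 8 falls became 0 without control 4w replicate 1 or 2 or PQ 4w replicate 1, and 1 without PQ 4w replicate 2. S100a8, a calcium-binding protein of neutrophils, was at 38.0, 25.1 and 58.5 CPM in control 1w, 29.6, 16.9 and 34.8 in PQ 1w, 58.7, 97.8 and 17.3 in control 4w and 10.1, 11.1 and 21.6 in PQ 4w. Its control values at 4w ran widely. It fell at 4w (adjusted p = 0.031), a call lost without control 4w replicate 1 or 2 or PQ 4w replicate 1 or 2 (adjusted p up to 0.131), and its difference did not pass (adjusted p = 0.157, 0.411 without control 4w replicate 2, and 0.0285 without control 4w replicate 3, where the difference was -1.87).

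Lymphocyte transcripts had the opposite sign to matrix and mitosis. Of 23 T cell genes the effect was higher at 4w in 22 and lower in 0, with a median effect of -1.06 at 1w and 0.87 at 4w and a median difference of 1.76. Without PQ 4w replicate 3 it was 20. At 4w 14 rose (background 5.75%), which became 8 without control 4w replicate 1 and 9 without control 4w replicate 2. Cd3e, a chain of the T cell receptor complex, was at 8.38, 9.55 and 7.41 CPM in control 1w and 2.86, 1.91 and 3.05 in PQ 1w. At 4w it was at 5.44, 2.83 and 5.37 CPM in controls and 8.19, 5.57 and 11.2 in PQ. That effect was not called (adjusted p = 0.0657), except without PQ 4w replicate 2 (adjusted p = 0.025). The difference of Cd3e was 2.57 ± 0.41 (adjusted p = 0.000801). Il7r, the interleukin 7 receptor of resting T cells, fell at 1w and rose at 4w, with effects of -1.19 and 0.56 and a difference of 1.76 ± 0.20 (adjusted p = 9.78e-05). The call at 4w was lost without control 4w replicate 1 or PQ 4w replicate 1 (adjusted p up to 0.0912).

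Foxp3 and Ctla4, genes of regulatory T cells, changed direction between the times. Foxp3, the lineage transcription factor of these cells (chromosome X, 7579676 to 7595243), was at 1.19, 1.02 and 0.947 CPM in control 1w and 0.330, 0.490 and 0.327 in PQ 1w, and at 1.16, 0.792 and 1.60 in control 4w and 3.57, 3.26 and 5.38 in PQ 4w. All PQ values were below the controls at 1w and above them at 4w. The fold change was 2.72-fold lower and then 3.43-fold higher, a difference of 3.22 ± 0.46 (adjusted p = 0.000394). Ctla4, an inhibitory receptor of these cells, was at 1.87, 1.65 and 1.00 CPM in control 1w, 0.440, 0.382 and 0.709 in PQ 1w, 0.984, 0.905 and 1.08 in control 4w and 2.58, 3.99 and 4.61 in PQ 4w. Its groups likewise did not overlap at either time, and the difference was 3.45 ± 0.46 (adjusted p = 0.000274). Both genes kept their calls at both times when any 1 library was left out. Izumo1r, a member of the folate receptor family found in regulatory T cells, had a difference of 3.55 ± 0.87 (adjusted p = 0.00905). The difference was 2.70 (adjusted p = 0.00696) without PQ 4w replicate 3, which held 4.67 CPM against 1.81 and 0.956 in the other PQ 4w libraries.

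Genes of NK and cytotoxic cells fell at 1w and, in the median, were near the control level at 4w. All 16 were higher at 4w than at 1w, with a median effect of -2.67 at 1w and -0.13 at 4w, and a median difference of 2.42. At 4w, 0 of 16 passed in the edgeR fit, 2 had an unadjusted p under 0.05, and DESeq2 called 1 and limma voom 0. Ncr1, an activating receptor of NK cells, was at 4.30, 4.95 and 5.85 CPM in control 1w and 0.550, 0.218 and 0.600 in PQ 1w. It was at 3.59, 3.45 and 2.74 CPM in control 4w and 2.75, 2.76 and 3.02 in PQ 4w, all within the range of the controls, and the difference was 3.25 ± 0.36 (adjusted p = 9.16e-05). Gzma, the protease granzyme A, had effects of -3.10 and -0.29 and a difference of 2.81 ± 0.32 (adjusted p = 0.000114). Klrg1, a receptor of mature NK and effector T cells, had effects of -3.15 and 0.40 and a difference of 3.55 ± 0.41 (adjusted p = 0.000134). Saline values of this list also differed, with 6 of 16 lower in control 4w than in control 1w (background 4.20%), which became 0 without control 1w replicate 1 and 8 without PQ 4w replicate 3.

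B cell genes showed a fall at 1w without a call at 4w. Of 19 genes of B cells and germinal centres, 14 were higher at 4w and 1 lower, and 14 fell at 1w (background of falls 22.9%). Cd79a, a chain of the B cell receptor, was at 35.6, 41.5 and 44.1 CPM in control 1w and 7.32, 7.52 and 8.23 in PQ 1w, and at 61.7, 60.5 and 56.2 in control 4w and 39.8, 35.05 and 88.9 in PQ 4w. PQ 4w replicate 3 lay above every control and replicates 1 and 2 below. The difference was 2.27 ± 0.40 (adjusted p = 0.00127), and 1.71 (adjusted p = 1.06e-05) without replicate 3, in which case the fall at 4w also passed (adjusted p = 0.00154). Of the 19 genes, 5 then fell at 4w in place of 0 in the edgeR fit of all libraries, in which 2 had an unadjusted p under 0.05, and DESeq2 and limma voom called 0.

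Plasma cell genes were, in the median, below the controls at 1w and above them at 4w. Of 14, the effect was higher at 4w in 11 and lower in 2, with a median effect of -1.11 at 1w and 0.82 at 4w. Without PQ 4w replicate 3 it was 8 higher and 2 lower, and 7 higher without control 1w replicate 1 or control 4w replicate 2. Jchain, which joins the chains of secreted IgA and IgM (chromosome 5, 88519809 to 88527897), was the highest named difference. It was at 48.2, 20.5 and 13.5 CPM in control 1w and 8.20, 8.34 and 14.2 in PQ 1w, where the ranges overlapped. At 4w it was at 16.8, 18.2 and 19.1 CPM in controls and 406, 275 and 598 in PQ, with all PQ values far above the highest control. It fell 2.67-fold at 1w and rose 23.6-fold at 4w, a difference of 5.98 ± 0.60 (adjusted p = 5.37e-05), and 5.29 without control 1w replicate 1. The call at 1w was lost without that library and without PQ 1w replicate 1 or 2 (adjusted p up to 0.113). Mzb1, an endoplasmic reticulum protein of antibody-secreting cells, had effects of -1.79 and 1.60 and a difference of 3.39 ± 0.58 (adjusted p = 0.00114), which was 2.67 (adjusted p = 0.000108) without PQ 4w replicate 3. Its call at 4w was lost without any 1 of the control 4w libraries (adjusted p up to 0.072).

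Dendritic cell genes were higher at 4w in 11 of 15 and lower in 1, with a median effect of -0.69 at 1w and 0.71 at 4w. Cd207, the lectin langerin of Langerhans cells and airway dendritic cells (chromosome 6, 83671207 to 83677857), was at 1.92, 1.36 and 1.73 CPM in control 1w and 0.165, 0.109 and 0.164 in PQ 1w. It was at 0.984, 0.848 and 1.14 CPM in control 4w and 3.24, 2.70 and 1.87 in PQ 4w, so PQ lay below the controls at 1w and above them at 4w. The difference was 4.85 ± 0.45 (adjusted p = 3.25e-05). Cd209a, the lectin DC-SIGN of monocyte-derived dendritic cells, had effects of -3.16 and 0.59 and a difference of 3.75 ± 0.37 (adjusted p = 5e-05). Cd74, the invariant chain of MHC class II, also abundant in alveolar type 2 cells, was at 1666, 1969 and 1505 CPM in control 1w and 934, 1030 and 1088 in PQ 1w. Its 4w levels were 1402, 1355 and 1401 CPM in controls and 2883, 2170 and 3181 in PQ, and the difference was 1.74 ± 0.19 (adjusted p = 8.41e-05). Dnase1l3, a secreted DNase of dendritic cells and macrophages, was at 7.53, 4.05 and 24.3 CPM in PQ 4w against 1.62, 2.43 and 2.06 in control 4w, a rise that was lost without control 4w replicate 1 (adjusted p = 0.0553), while its effect at 1w did not pass, except without PQ 4w replicate 2 or 3 (adjusted p = 0.00626 without replicate 3). Its difference was 3.79 ± 0.83 (adjusted p = 0.00497), and 2.73 (adjusted p = 0.000564) without PQ 4w replicate 3.

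**Figure D4:**
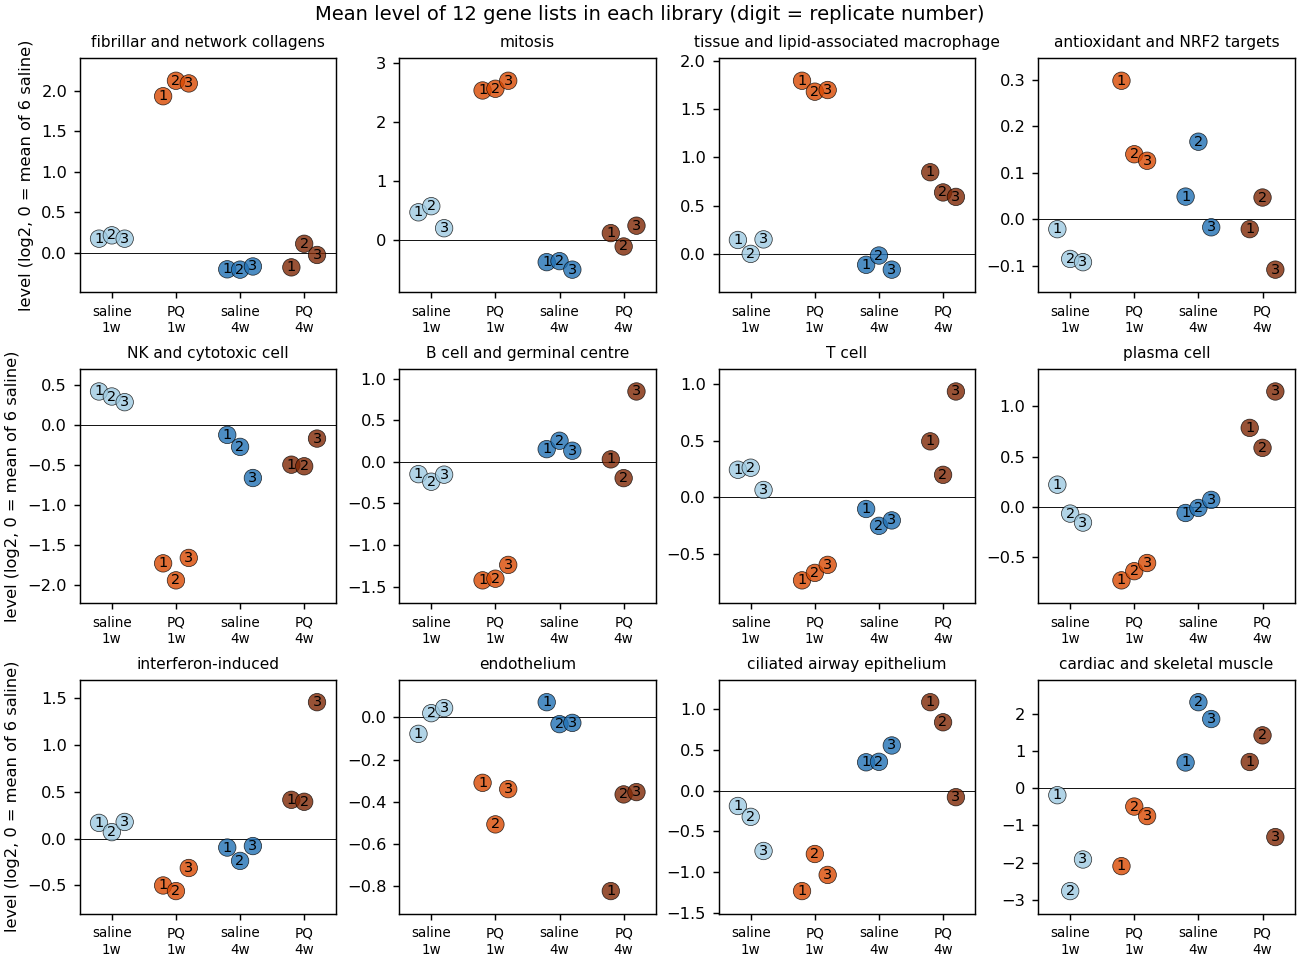
Each circle is the mean level of a gene list in 1 library, as log2 (CPM + 0.5) minus the mean of the 6 saline libraries, with the replicate number inside. Collagen and mitosis lists were high in the 3 PQ 1w libraries alone, NK and B cell lists were lowest there, and PQ 4w replicate 3 stood above replicates 1 and 2 for the interferon-induced and B cell lists and below them for the ciliated and muscle lists.

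Interferon-induced genes, which encode antiviral proteins and GTPases switched on through STAT factors, were, in the median, below the controls at 1w and above them at 4w. Of 27, the effect was higher at 4w in 24 and lower in 0, with a median effect of -0.61 at 1w and 1.06 at 4w and a median difference of 1.58. Without PQ 4w replicate 3 it was again 24, with a median of 1.04. The mean level of the list was 1.46 in PQ 4w replicate 3 on the log2 scale, against 0.42 and 0.39 in replicates 1 and 2, all above the -0.24 to -0.08 of control 4w. Called rises at 4w numbered 21 (background 5.75%), and 16 without PQ 4w replicate 3, 4 without control 4w replicate 1 and 6 without control 4w replicate 2 or 3. Called falls at 1w numbered 14 (background 22.9%), and 9 without control 1w replicate 1 or PQ 1w replicate 1 or 2.

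Oas2, an oligoadenylate synthetase, was at 29.1, 22.9 and 31.1 CPM in control 1w and 11.1, 10.5 and 14.7 in PQ 1w, and at 18.8, 22.0 and 19.5 in control 4w and 31.5, 35.5 and 60.9 in PQ 4w. PQ lay below the controls at 1w and above them at 4w, with replicate 3 the highest. The difference was 2.28 ± 0.32 (adjusted p = 0.000362), and 1.93 (adjusted p = 6.66e-05) without replicate 3. The rise at 4w was not called without control 4w replicate 1 (adjusted p = 0.052). Mx1, an antiviral GTPase, had 8.08, 12.8 and 30.2 CPM in PQ 4w against 3.24, 4.07 and 3.82 in control 4w. Its difference was 2.78 ± 0.58 (adjusted p = 0.0036), and 2.06 (adjusted p = 0.00092) without replicate 3. Isg15, a ubiquitin-like protein, rested more on that library: it had 12.8, 14.5 and 47.8 CPM in PQ 4w, and the difference of 1.82 ± 0.56 (adjusted p = 0.0261) became 0.93 (adjusted p = 0.00193) without it. That call was lost without control 1w replicate 3, control 4w replicate 2 or 3 or PQ 1w replicate 2 (adjusted p up to 0.0579), and its rise at 4w without any 1 control or PQ 1w library (adjusted p up to 0.116). Gbp10, a guanylate-binding protein whose reads may be split with the near-identical Gbp6, had a difference of 4.22 ± 1.12 (adjusted p = 0.0136) and 2.48 (adjusted p = 0.00764) without replicate 3. It was at 2.03, 1.125 and 12.6 CPM in PQ 4w against 0.810, 1.47 and 1.54 in control 4w. Its effect was called at neither time (adjusted p = 0.0509 at 1w and 0.0916 at 4w). The effect at 1w passed without any 1 PQ 4w library, and that at 4w without PQ 4w replicate 2 (adjusted p = 0.0233). Ms4a4c, of a family of similar membrane proteins, had 5.72, 6.25 and 25.1 CPM in PQ 4w against 8.97, 7.92 and 8.16 in control 4w. Its effect at 4w was not called (adjusted p = 0.513), while at 1w it fell 9.76-fold (adjusted p = 0.000704). The difference of 3.85 ± 0.79 (adjusted p = 0.00322) became 2.80 (adjusted p = 0.00143) without replicate 3.

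Promoters of the interferon list held the core of an interferon-stimulated response element, GAAA, any 2 letters and GAAA again, on either strand, in 13 of 21 (61.9%), against 3.22% of the 15800 promoters of tested genes. Of the 27 genes 18 had an entry. Shown are the 3 list members with the smallest p for the difference among those with a match, picked after their values were known. They are Stat2, a transcription factor of the interferon response (chr10:128270248-128270547, plus strand), Tgtp1, a T cell GTPase (chr11:48992197-48992496, minus strand), and Igtp, an immunity-related GTPase (chr11:58199306-58199605, plus strand). Capitals mark the match, which on the other strand reads TTTC, any 2 letters and TTTC.
Stat2: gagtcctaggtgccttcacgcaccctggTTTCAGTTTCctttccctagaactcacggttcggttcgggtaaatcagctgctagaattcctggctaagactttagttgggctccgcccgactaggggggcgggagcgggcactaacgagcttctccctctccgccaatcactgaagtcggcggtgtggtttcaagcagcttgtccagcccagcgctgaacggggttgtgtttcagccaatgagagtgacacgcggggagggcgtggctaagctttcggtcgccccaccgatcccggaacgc
Tgtp1: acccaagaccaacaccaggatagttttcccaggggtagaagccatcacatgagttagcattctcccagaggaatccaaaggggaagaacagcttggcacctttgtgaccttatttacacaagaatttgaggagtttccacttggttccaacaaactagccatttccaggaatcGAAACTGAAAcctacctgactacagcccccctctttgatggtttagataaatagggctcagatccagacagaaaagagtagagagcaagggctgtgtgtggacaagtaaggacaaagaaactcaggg
Igtp: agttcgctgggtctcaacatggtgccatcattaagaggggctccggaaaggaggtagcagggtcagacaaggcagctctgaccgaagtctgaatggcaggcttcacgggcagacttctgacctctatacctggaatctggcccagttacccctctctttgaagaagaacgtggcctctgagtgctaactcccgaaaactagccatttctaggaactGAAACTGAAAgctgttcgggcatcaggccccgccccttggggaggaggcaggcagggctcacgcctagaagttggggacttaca
In Tgtp1 and Igtp the match began 77 and 34 bases before the start site, and in Stat2 222 bases before it. The differences were 1.195 for Stat2 (adjusted p = 0.00108), 2.40 for Tgtp1 (adjusted p = 0.00192) and 1.65 for Igtp (adjusted p = 0.00199). Tgtp1 has a near-identical copy, so its count is uncertain.

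Epithelial genes of the alveolus divided by cell state. Of 16 alveolar type 2 genes, the effect was higher at 4w in 9 and lower in 0, with a median effect of -0.40 at 1w and 0.24 at 4w. Sftpc, surfactant protein C, was at 15993, 20813 and 15850 CPM in control 1w and 9006, 10061 and 9171 in PQ 1w, and at 17110, 14261 and 15463 in control 4w and 15705, 14990 and 15944 in PQ 4w. It was below the controls at 1w and within their range at 4w, and the difference was 0.89 ± 0.16 (adjusted p = 0.00162). Transitional alveolar epithelium, a state that type 2 cells pass through on the way to type 1 cells, had 12 of 18 genes lower at 4w and 0 higher. All but 1 of those 18 rose at 1w (background 25.9%). S100a6, a calcium-binding protein of that state, rose 2.83-fold at 1w and was not called at 4w (adjusted p = 0.162), with a difference of -1.86 ± 0.23 (adjusted p = 0.000167). Krt8, a keratin that marks the same state, had effects of 0.81 and 0.20 and a difference of -0.61 ± 0.19 (adjusted p = 0.0249). That call was lost without control 1w replicate 3, control 4w replicate 3 or PQ 1w replicate 2 (adjusted p up to 0.0606).

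Alveolar type 1 genes were lower in the median at both times. The list's median effect was -0.35 at each time, with 1 of 16 genes higher at 4w and 2 lower, a called share of 18.8% against 32.0% of all genes. Ager, the receptor that marks these cells, was at 2398, 2984 and 2632 CPM in control 1w, 2240, 2064 and 1869 in PQ 1w, 2530, 2050 and 2146 in control 4w and 1080, 1644 and 1935 in PQ 4w. Its effects of -0.38 and -0.53 did not pass, and the 95% interval of its difference ran from -0.69 to 0.38. PQ values lay below the controls at both times, and the effect at 4w passed without PQ 4w replicate 3 (adjusted p = 0.0153) and that at 1w without PQ 4w replicate 1 (adjusted p = 0.0151). Pdpn, podoplanin of type 1 and lymphatic cells, rose at 1w alone by these calls, with a difference of -0.94 ± 0.21 (adjusted p = 0.00523). Msln, mesothelin of the pleural lining and a member of the erythroid, adipocyte and mesothelial list (1 of 18 lower, 0 higher), was at 104, 111 and 92.5 CPM in control 1w and 455, 449 and 446 in PQ 1w, and at 51.0, 68.1 and 46.2 and 44.0, 46.8 and 75.8 in the 4w groups, a difference of -2.13 ± 0.26 (adjusted p = 0.000183).

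Airway transcripts differed between the saline groups as well as with paraquat. Scgb1a1, the secretoglobin of club cells, was at 26549, 28258 and 19757 CPM in control 1w and 4890, 3524 and 3619 in PQ 1w, and at 43817, 39622 and 48086 in control 4w and 31152, 41151 and 19969 in PQ 4w. PQ 4w replicate 3 was the lowest of its group. The difference was 2.12 ± 0.33 (adjusted p = 0.000637), and 2.34 without that replicate. Cyp2f2, a cytochrome P450 of club cells, fell 6.32-fold at 1w and 1.54-fold at 4w, with a difference of 2.03 ± 0.25 (adjusted p = 0.000165), and it was higher in control 4w than in control 1w by 1.04 (adjusted p = 0.0127). The call at 4w was lost without any 1 control 4w library and without PQ 1w replicate 1 or 3 or PQ 4w replicate 1 (adjusted p up to 0.0964). Of 15 airway secretory and mucous genes 2 were higher and 0 lower, a called share of 13.3% against 32.0% of all genes. The list's median effect was above 0 at both times, 0.95 at 1w and 1.67 at 4w. At 1w 1 of its genes rose and 2 fell, and at 4w 3 rose and 1 fell. Those at 4w became 8 and 1 without PQ 4w replicate 3, and 0 and 0 without control 4w replicate 1. The median difference of 0.73 became -0.48 without control 1w replicate 1.

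Ciliated cell genes depended on the libraries used. Of 20, 8 were higher at 4w and 0 lower, but 19 without PQ 4w replicate 3. The number was 2 without control 1w replicate 1 or PQ 4w replicate 1, 3 without control 4w replicate 2 or PQ 1w replicate 1 or 3, and 4 without control 4w replicate 1 or PQ 4w replicate 2. With any 1 library left out, the median difference was 0.73 to 1.24. Tppp3, a microtubule protein of ciliated cells, was at 341, 429 and 294 CPM in control 1w and 128, 115 and 116 in PQ 1w, and at 380.2, 338 and 413 and 353, 389 and 247 in the 4w groups. Its difference was 1.37 ± 0.23 (adjusted p = 0.00106). Foxj1, the transcription factor of ciliated cells, had a difference of 0.55 ± 0.37 (adjusted p = 0.285) that did not pass, and 0.83 (adjusted p = 0.018) without PQ 4w replicate 3. In saline, 10 of the 20 were higher in control 4w than in control 1w (background 5.90%), and 0 when any 1 library of control 4w, or control 1w replicate 1 or 3, was left out.

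Endothelial genes had more called falls than rises at both times. Of 36, 20 fell and 5 rose at 1w, and 21 fell and 3 rose at 4w (background of falls 22.9% and 6.39%), with median effects of -0.48 and -0.47, and the difference was called for 5 lower and 1 higher, 16.7% against 32.0% of all genes. Without control 4w replicate 1, 3 or PQ 4w replicate 1, the number that fell at 4w was 10, 12 and 12, and without control 4w replicate 1 none rose (0 of 36). Pecam1, the junction protein CD31, was at 926, 926 and 988 CPM in control 1w, 684, 556 and 655 in PQ 1w, 954, 843 and 972 in control 4w and 653, 774 and 756 in PQ 4w. Its difference was 0.24 ± 0.13 (adjusted p = 0.188), with a 95% interval from -0.05 to 0.53. The call of a fall at 4w (adjusted p = 0.0353) held without 4 of the 12 libraries in turn and was lost without the other 8, with adjusted p up to 0.149. Sgk1, a stress-induced kinase of that list, had a difference of -0.79 ± 0.15 (adjusted p = 0.00181). Gja5, connexin 40 of arterial endothelium (chromosome 3, 97032402 to 97053634), was at 45.0, 46.5 and 47.0 CPM in control 1w, 63.5, 58.8 and 59.4 in PQ 1w, 49.4, 48.8 and 38.5 in control 4w and 11.8, 15.02 and 23.1 in PQ 4w. It fell 2.74-fold at 4w and was not called at 1w, where the PQ values lay above the controls, with a difference of -1.85 ± 0.25 (adjusted p = 0.000303). The effect at 1w passed without PQ 4w replicate 1 or 3 (lowest adjusted p = 0.00471).

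Among genes of the response to oxidants, more differences were called lower than higher. Of 45 antioxidant genes and targets of the transcription factor NRF2, 21 were lower at 4w, 4 were higher and 20 did not pass, with a median effect of 0.30 at 1w and -0.11 at 4w. Hmox1, the oxygenase that degrades heme (chromosome 8, 75093618 to 75100593), was at 34.6, 34.2 and 37.6 CPM in control 1w and 326, 202 and 175 in PQ 1w. It was at 33.5, 36.0 and 30.1 CPM in control 4w and 42.3, 41.4 and 40.7 in PQ 4w, above the controls in all 3 libraries. That effect was not called (adjusted p = 0.28), except without PQ 1w replicate 1 (adjusted p = 0.0253). The difference of Hmox1 was -2.40 ± 0.26 (adjusted p = 7.63e-05). Nqo1, a quinone reductase and NRF2 target, was not called at either time, with effects of 0.50 and -0.83, but its difference of -1.33 ± 0.36 (adjusted p = 0.0158) was. Its effect at 4w passed without control 4w replicate 3 or PQ 1w replicate 1 (lowest adjusted p = 0.04). Cat, the peroxide-degrading catalase, was at 282, 285 and 275 CPM in control 1w and 124, 133 and 129 in PQ 1w, and at 329, 339.6 and 351 and 295, 296 and 268 in the 4w groups. It fell 2.19-fold at 1w and 1.19-fold at 4w, and the difference was 0.88 ± 0.09 (adjusted p = 4.04e-05). The call at 4w was lost without any 1 control 4w library or PQ 4w replicate 3 (adjusted p up to 0.0743). Por, the reductase that can pass electrons to paraquat, had a difference of 0.52 ± 0.20 (adjusted p = 0.07), which did not pass, and 0.67 (adjusted p = 0.00499) without PQ 4w replicate 3. It also passed with DESeq2 (adjusted p = 0.0262) and without control 4w replicate 3 (adjusted p = 0.0431).

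Enzymes of xenobiotic metabolism went the other way, with 15 of 32 higher at 4w and 1 lower, 12 of them among the 16 genes of oxidation. Aox3, an aldehyde oxidase, was at 147, 142 and 154 CPM in control 1w and 24.97, 31.4 and 22.8 in PQ 1w, and at 215, 214 and 223 and 198, 190.5 and 155 in the 4w groups. It fell 5.60-fold at 1w, and the difference was 2.22 ± 0.16 (adjusted p = 7.08e-06). Oxidative phosphorylation had 27 of 31 genes lower and 0 higher, each by a small amount, with a median effect of 0.30 at 1w and -0.19 at 4w. Ndufa8, a subunit of complex I, had effects of 0.37 and -0.33, called in opposite directions, and a difference of -0.70 ± 0.10 (adjusted p = 0.000296). The list of glycolysis and hypoxia had 9 of 23 lower and 0 higher (39.1% called), 8 of 13 among glycolysis genes and 1 of 10 among hypoxia targets. Pgam1, phosphoglycerate mutase, rose at 1w alone by these calls, with a difference of -0.86 ± 0.07 (adjusted p = 2.2e-05). Psat1, an enzyme of serine synthesis, had effects of 1.59 and 0.38 and a difference of -1.21 ± 0.14 (adjusted p = 0.000111). The list of endoplasmic reticulum stress that holds it had 5 of 25 higher and 1 lower, 24.0% against 32.0% of all genes, and 9 higher without PQ 4w replicate 2. Lipid synthesis and handling had 5 of 27 lower and 4 higher, near the background, and Pltp, a phospholipid carrier, had a difference of 0.69 ± 0.12 (adjusted p = 0.00116).

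The list of p53 targets and cell death had 12 of 27 lower at 4w and 2 higher, a called share of 51.9% against 32.0% of all genes. Without control 4w replicate 1 or 2 or PQ 1w replicate 3, 7 were lower. Of its 18 p53 targets 10 were lower and 1 higher (61.1% called). Of its 9 BCL2 family genes 2 were lower and 1 higher, a called share of 33.3% that was near that of all genes. Phlda3, an inhibitor of AKT induced by p53, rose at 1w and fell at 4w, with effects of 0.80 and -0.52 and a difference of -1.31 ± 0.16 (adjusted p = 0.00016). The fall at 4w was not called without control 4w replicate 1 (adjusted p = 0.0669). Cdkn1a, which encodes the inhibitor p21 of the cell cycle, had 377, 373 and 341 CPM in control 1w, 256, 213 and 232 in PQ 1w, 327, 317 and 198 in control 4w and 87.6, 111 and 118 in PQ 4w. It fell 1.56-fold at 1w and 2.65-fold at 4w, 1 of 2 genes that fell at both times and fell further at 4w by the difference, which was -0.77 ± 0.23 (adjusted p = 0.0252). That call was lost without control 1w replicate 3, control 4w replicate 1 or 2, PQ 1w replicate 1 or PQ 4w replicate 1 (adjusted p up to 0.0711). Complement and coagulation genes had 10 of 30 lower and 4 higher, against 17.9% and 14.1% of all genes. C6, a component of the membrane attack complex, fell at 1w and rose at 4w, with effects of -0.48 and 0.63 and a difference of 1.12 ± 0.14 (adjusted p = 0.000229). Immediate early genes had 6 of 20 lower and 0 higher, against 17.9% and 14.1% of all genes. The called share in both directions together was 30%, against 32.0% of all genes. Myc, a growth transcription factor, had a difference of -0.88 ± 0.15 (adjusted p = 0.00099). Clock genes had 4 of 19 higher and 1 lower, 26.3% against 32.0% of all genes, and Nr1d1, the repressor REV-ERB alpha, fell at 1w from 173, 146 and 209 to 74.6, 59.0 and 58.1 CPM with a difference of 1.61 ± 0.24 (adjusted p = 0.000553). The hour of sampling is not given in the sources used here.

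**Figure D5:**
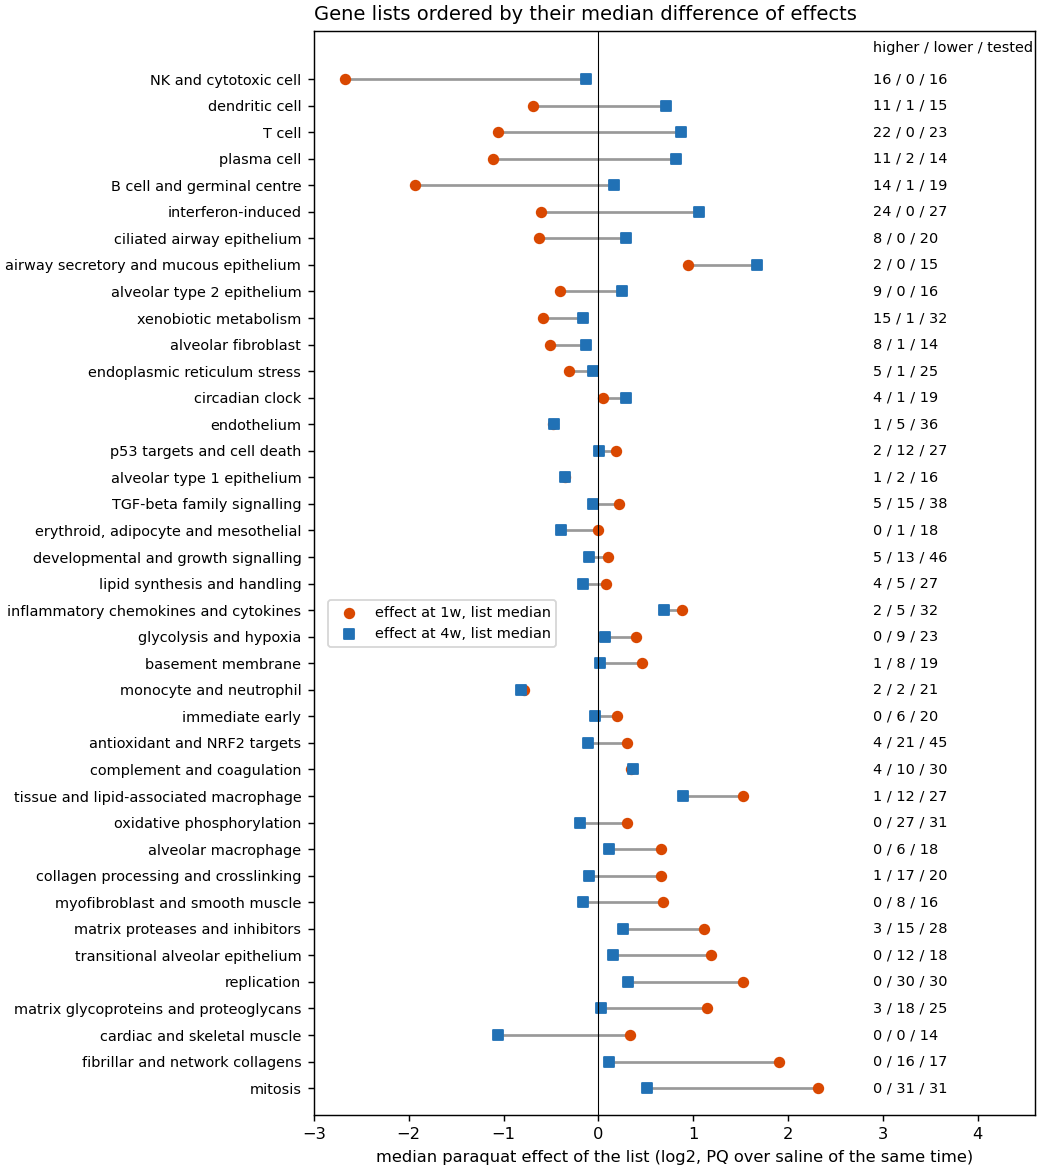
For each of the 39 gene lists, a circle marks its median log2 paraquat effect at 1w and a square that at 4w, and the numbers give members higher and lower at 4w and members tested. Lists are ordered by their median difference, from 2.42 for NK and cytotoxic cells at the top to -1.73 for mitosis at the bottom, and the endothelium and alveolar type 1 lists have both marks at the same place.

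Other genes with the lowest differences rose at 1w from low control levels. Hmga2, a chromatin protein of embryonic tissue, was at 0.113, 0.114 and 0.111 CPM in control 1w and 1.10, 6.76 and 4.69 in PQ 1w, and at 0.174, 0.339 and 0.514 and 0.275, 0.338 and 0.0549 in the 4w groups, a difference of -5.74 ± 1.24 (adjusted p = 0.00455). H19, an imprinted noncoding RNA of embryonic tissue, was at 1.13, 0.682 and 0.668 CPM in control 1w and 6.71, 39.8 and 16.5 in PQ 1w, with a difference of -3.74 ± 0.97 (adjusted p = 0.0119), and -2.88 (adjusted p = 0.00671) without PQ 1w replicate 2. For Hmga2, Grem1 and H19 alike, PQ 1w replicate 1 was the lowest and replicate 2 the highest of the 3 PQ 1w libraries. Prss22, a secreted serine protease, was at 0.340, 0.171 and 0.111 CPM in control 1w, 11.3, 8.07 and 10.7 in PQ 1w, 0.174, 0.226 and 0.228 in control 4w and 0.935, 0.788 and 0.110 in PQ 4w. Its difference was -4.04 ± 0.93 (adjusted p = 0.00625), and its effect at 4w passed only without PQ 4w replicate 3 (adjusted p = 0.00958).

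Heart and skeletal muscle transcripts varied between libraries. Myh6, the myosin of atrial muscle and of the muscle sleeve of pulmonary veins, ran from 2.16 to 128 CPM in control 1w, 14.0 to 101 in PQ 1w, 245 to 714 in control 4w and 58.6 to 479 in PQ 4w. Of the 14 genes of the muscle list, 12 were higher in control 4w than in control 1w (background 5.90%). That number was 0 or 1 without control 1w replicate 2 or 3 or control 4w replicate 2 or 3, and 7 without PQ 1w replicate 3. The difference of effects was called for 0 of 14 in the edgeR fit, by DESeq2 and by limma voom, and 0 had an unadjusted p under 0.05. Tnnt2, cardiac troponin T, had a difference of -2.12 ± 0.98 (adjusted p = 0.12), and -3.26 (adjusted p = 0.0306) without control 1w replicate 1 and -2.78 without PQ 4w replicate 2. Ankrd1, an ankyrin repeat protein of heart muscle and of stretched cells, was at 14.5, 14.7 and 13.1 CPM in control 1w and 31.6, 43.4 and 39.8 in PQ 1w, and at 24.5, 67.5 and 43.3 in control 4w and 16.7, 29.4 and 8.46 in PQ 4w. Its difference was -2.75 ± 0.55 (adjusted p = 0.00298), and the fall at 4w (adjusted p = 0.0457) was lost without any 1 of 10 libraries (adjusted p up to 0.184). Klhl30, a kelch protein, rose 6.35-fold at 1w (adjusted p = 0.000119), from 0.679, 0.398 and 0.780 to 3.355, 4.20 and 4.36 CPM. It was at 0.926, 2.15 and 1.48 CPM in control 4w and 0.495, 1.12 and 0.439 in PQ 4w. That effect was not called (adjusted p = 0.0834), except without PQ 4w replicate 2 (adjusted p = 0.025). The difference of Klhl30 was -3.81 ± 0.55 (adjusted p = 0.00044). The mean level of the muscle list was -0.19, -2.77 and -1.92 in control 1w replicates 1 to 3, where Ankrd1 ran only from 13.1 to 14.7 CPM, and -2.10, -0.49 and -0.75 in PQ 1w replicates 1 to 3, on the log2 scale. It was 0.69, 2.31 and 1.86 in control 4w replicates 1 to 3 and 0.71, 1.42 and -1.31 in PQ 4w replicates 1 to 3. Its part in the differences of Ankrd1 and Klhl30 was not tested.

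Further genes reversed between the times. Sapcd2, a protein of spindle orientation, was at 2.83, 3.13 and 2.62 CPM in control 1w and 8.25, 7.96 and 8.07 in PQ 1w, and at 3.59, 3.28 and 3.42 in control 4w and 1.10, 1.97 and 1.26 in PQ 4w. It rose 2.83-fold and then fell 2.37-fold, and the difference was -2.75 ± 0.26 (adjusted p = 3.87e-05). Igf2bp1, an RNA-binding protein of embryonic tissue, rose 1.92-fold at 1w and fell 2.22-fold at 4w, with a difference of -2.10 ± 0.26 (adjusted p = 0.000181). Nccrp1, an F-box protein that binds glycoproteins, fell 3.06-fold at 1w and rose 2.86-fold at 4w, with a difference of 3.13 ± 0.49 (adjusted p = 0.000674). These 3 genes kept both calls when any 1 library was left out.

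Some genes had a called effect at 4w alone. Slc26a10, of a family of anion transporters, was at 1.64, 1.88 and 2.17 CPM in control 1w, 3.58, 2.34 and 4.47 in PQ 1w, 2.66, 2.83 and 3.25 in control 4w and 26.7, 17.9 and 9.66 in PQ 4w. Its difference was 1.77 ± 0.49 (adjusted p = 0.0172), and its effect at 1w also passed without PQ 1w replicate 2 or PQ 4w replicate 1 or 3. Crabp1, a retinoic acid binding protein, rose 4.55-fold at 4w, with a difference of 2.08 ± 0.59 (adjusted p = 0.0185), lost without control 1w replicate 1 (adjusted p = 0.0531). Disp2, a relative of the hedgehog release protein dispatched (chromosome 2, 118779702 to 118795175), was at 66.8, 79.8 and 72.4 CPM in control 1w, 93.6, 67.8 and 84.2 in PQ 1w, 72.8, 59.4 and 57.4 in control 4w and 8.63, 16.1 and 25.9 in PQ 4w. Every PQ 4w value was below every other value, and the difference was -2.07 ± 0.37 (adjusted p = 0.0016). Gal, the neuropeptide galanin, fell 3.60-fold at 4w, with a difference of -1.90 ± 0.54 (adjusted p = 0.0183). Asprv1, a retroviral-like protease of skin and neutrophils, was at 4.63, 6.11 and 1.43 CPM in control 4w and 1.10, 1.07 and 1.26 in PQ 4w, with a difference of -2.28 ± 0.70 (adjusted p = 0.0264). Its fall at 4w was lost without any 1 of 7 libraries (adjusted p up to 0.155), and the call of the difference without any 1 of 7 (adjusted p up to 0.0752).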

How the data were processed

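RNA of 12 mouse lung libraries was sequenced on a BGI instrument. Per the labels' protocols, samples had an RNA integrity number above 7 and a ratio of 28S to 18S RNA over 1. The authors deposited, for each library, expected counts per gene and FPKM. The submitters' processing notes name HISAT, RSEM 1.2.12 and mm10. The version of HISAT, the annotation release and the strand setting are each not given in the sources used here. Of the deposited expected counts, 69.7% were whole numbers, since RSEM divides reads that fit several genes, and near-identical genes are therefore uncertain. For 24.7% of genes the deposited length is not the same in every library. A combined table of 12 columns of FPKM deposited by the authors was not used.

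Expected counts were rounded, filtered with filterByExpr (minimum count 10, minimum total 15) and scaled by TMM. All 4 groups were fitted together with edgeR 4.0.16 (glmQLFit, glmQLFTest) in R 4.3.3, and the contrast of the 2 paraquat effects was tested with Benjamini-Hochberg adjustment at 0.05. Column names gave every library its group, with 0 columns unassigned. The fit was also run on simulated counts with changes set in PQ 4w alone, unlike these libraries, where most calls were at 1w. Its outcome is not reported here and is no support for the calls. Alternatives were RLE and upper quartile scaling, no filter, a minimum of 1 CPM in 3 libraries, DESeq2 1.42.0, limma 3.58.1 (voom, and log2 of FPKM plus 1), a replicate block, and each library left out in turn.

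The text names 91 genes by rule, and 1 more that the rule took is not reported here. These were the 8 highest and 8 lowest called differences among genes that averaged 1 CPM or more and whose PQ and control values did not overlap at 1 time at least, leaving out predicted genes, receptor segments and histones. Under the same conditions, the rule took up to 4 genes of each order that reversed, up to 4 each way that were called at 4w and not at 1w, and those that held their effect. It also took the member of each of the 39 lists with the smallest p, and 30 preset genes. Members and lists were chosen with earlier results of these data known, so no list is independent evidence. Of 921 list symbols 918 matched a gene, and 23 genes are in more than 1 list. Symbols and coordinates came from the gene table for 20718 of 20774 genes, and 27 symbols changed into dates were restored from gene IDs. Tables and figures used Python 3.11.15, pandas 2.3.3, numpy 2.4.6, scipy 1.17.1 and matplotlib 3.10.9. Counting intervals are 95% and cover counting error only.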

Additional observations from a re-analysis of the deposited data

Results flagged for a closer look

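The paraquat effect differed between 1w and 4w by a test of the difference itself, the contrast of effects in the edgeR fit, for 5092 genes. The named genes among them are given with their differences, which were described above. Groups of 3 libraries are too small to call a single library an outlier.

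In 34 of the 82 genes the effect was higher at 4w. The log2 difference was 5.98 for Jchain, 4.85 for Cd207, 4.22 for Gbp10, 3.85 for Ms4a4c, 3.79 for Dnase1l3, 3.75 for Cd209a, 3.55 for Klrg1 and 3.55 for Izumo1r. Among the next positive values it was 3.45 for Ctla4, 3.39 for Mzb1, 3.25 for Ncr1, 3.22 for Foxp3, 3.13 for Nccrp1, 2.81 for Gzma, 2.78 for Mx1 and 2.75 for Slc7a10. Then it was 2.57 for Cd3e, 2.28 for Oas2, 2.27 for Cd79a, 2.22 for Aox3, 2.12 for Scgb1a1, 2.08 for Crabp1, 2.03 for Cyp2f2 and 1.96 for Ccl5. Next it was 1.82 for Isg15, 1.77 for Slc26a10, 1.76 for Il7r, 1.74 for Cd74, 1.61 for Nr1d1, 1.37 for Tppp3 and 1.12 for C6. It was also 0.89 for Sftpc, 0.88 for Cat and 0.69 for Pltp.

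In 48 of the 82 genes the effect was lower at 4w. The log2 difference was -6.60 for Marco, -6.58 for Tnfsf18, -5.74 for Hmga2, -5.33 for Grem1, -5.03 for Vsig4, -4.04 for Prss22, -3.81 for Klhl30 and -3.74 for H19. Among the next negative values it was -3.07 for Timp1, -3.07 for Ccl2, -2.86 for Tnc, -2.75 for Ankrd1, -2.75 for Sapcd2, -2.58 for Col1a1, -2.40 for Hmox1 and -2.28 for Asprv1. Then it was -2.14 for Foxm1, -2.13 for Msln, -2.10 for Igf2bp1, -2.07 for Disp2, -2.04 for Fn1, -1.90 for Gal, -1.89 for Sfrp1 and -1.86 for S100a6. Next it was -1.85 for Gja5, -1.83 for Acta2, -1.82 for Fkbp10, -1.73 for Fbn1, -1.72 for Lox, -1.70 for Mmp14, -1.50 for Col3a1 and -1.33 for Nqo1. It was also -1.31 for Phlda3, -1.28 for Rrm1, -1.27 for Lgmn, -1.27 for Mki67, -1.21 for Psat1, -1.11 for Mcm2, -0.94 for Pdpn and -0.93 for Nid2. Further values were -0.88 for Myc, -0.86 for Pgam1, -0.79 for Sgk1, -0.77 for Cdkn1a, -0.70 for Ndufa8, -0.64 for Gpnmb, -0.61 for Krt8 and -0.48 for Tgfb1.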

How the results depend on the processing

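The number of genes whose paraquat effect differed between the times was 3703 to 5250 under all 21 alternatives, 4107 to 5250 with 1 library left out and 5138 by DESeq2, and that at 1w was 6704 to 8264 with 1 library left out. At 4w, leaving out 1 library gave 641 to 2104, and the replicate block within time gave 895. Between the saline groups, leaving out 1 library gave 123 to 2570, limma voom gave 1021 and the replicate block within time gave 39. The cause was not tested. A replicate block over all libraries gave 4826 differences, 7636 genes at 1w, 1646 at 4w and 1447 between the saline groups, and the block within time gave 3703 differences and 6793 genes at 1w. Same-numbered control and PQ libraries had correlations of deviations from their group means of -0.35, -0.214 and -0.074 at 1w and -0.111, 0.152 and -0.179 at 4w. Control and PQ libraries of a time with different numbers had -0.296 to 0.307. Deviations from means of 3 libraries are too few to decide whether the numbers pair the samples. Of 1906 values of named genes under the alternatives, 0 reversed, 33 lost and 6 gained the call of the difference, and 71 of the 82 genes with a called difference kept it under all 21. Among the calls lost were those of Gbp10, Dnase1l3, Grem1, H19, Slc26a10, Asprv1 and Isg15 under limma voom (adjusted p up to 0.158). Groups of 3 libraries limit what a single library can show, and low counts limit Tnfsf18, Grem1, Vsig4, Hmga2 and Prss22.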
